A study of Mus musculus with 4 samples.

Results

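The 9 genes described here write, remove or read DNA methylation: Dnmt1, Dnmt3a, Dnmt3b, Dnmt3l, Uhrf1, Uhrf2, Tet1, Tet2 and Tet3. They were chosen by symbol, 9 of 23420 genes listed, and all 9 were found. Their RNA was measured in pachytene spermatocytes, sorted by FACS from the testes of wild-type C57BL/6 mice of 23 weeks of age and then kept in culture for 24 h. The control cells (Ctrl, 2 libraries) received DMSO, and the treated cells (AZ20, 2 libraries) received 10 μM AZ20, an inhibitor of the kinase ATR. Cells of each mouse were split between both conditions. Libraries of the same number were taken as pairs here, although neither the labels nor the methods state that they share a mouse. The sample labels give a culture temperature of 34 °C and the methods 32 °C. Each library was made from 15000 cells, and each value is in TPM (number of transcripts of a gene, scaled to the same total in every library), which is corrected for gene length and can be compared between genes.

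DNA methylation in mammals lies mainly on the cytosine of CpG dinucleotides. Dnmt3a and Dnmt3b set it on unmethylated DNA, helped by Dnmt3l, which has no catalytic activity of its own. Dnmt1 copies it to the new strand after replication, guided there by Uhrf1, which binds hemimethylated CpG. The Tet enzymes oxidise methylcytosine, a first step of its removal. In the male germ line, methylation is set in fetal prospermatogonia, where Dnmt3l is abundant, and pachytene spermatocytes have finished their last replication. Pachytene spermatocytes are also known to use an alternative first exon of Dnmt1, and TPM of a whole gene do not separate such transcripts.

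Since CpG is the substrate of these proteins, CpG content was counted at their own start sites, in the RefSeq promoter windows of GRCm38.p6. Each window holds 300 bases, most of them upstream of an annotated start, and all 9 genes matched, with 16 windows in all. Of 32851 such windows in the mouse genome, the median holds 7 CpG (quartiles 3 and 20). Dnmt1 has 3 annotated starts, shown first from the most upstream to the most downstream because the TPM of the gene sums over all of them. The windows of Uhrf1, Tet2 and Dnmt3l follow as those of the most abundant member, of the least abundant member and of a member poor in CpG. Each is printed 5′ to 3′ on the strand of the gene, with every CpG in capitals.

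Dnmt1, most upstream start (chr9:20959839-20960138, minus strand): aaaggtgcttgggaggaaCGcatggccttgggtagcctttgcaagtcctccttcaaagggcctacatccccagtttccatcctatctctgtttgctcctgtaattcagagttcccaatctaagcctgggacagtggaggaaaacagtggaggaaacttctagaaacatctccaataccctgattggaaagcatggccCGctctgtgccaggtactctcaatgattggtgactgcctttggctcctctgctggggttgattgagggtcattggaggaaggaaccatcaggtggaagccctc
Dnmt1, middle start (chr9:20952930-20953229, minus strand): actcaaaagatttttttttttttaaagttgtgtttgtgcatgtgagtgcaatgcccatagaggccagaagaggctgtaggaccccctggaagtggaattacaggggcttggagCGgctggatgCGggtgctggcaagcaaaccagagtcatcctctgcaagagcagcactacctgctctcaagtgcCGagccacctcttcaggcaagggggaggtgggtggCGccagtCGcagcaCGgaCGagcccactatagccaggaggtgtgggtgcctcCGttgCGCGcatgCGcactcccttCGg
Dnmt1, most downstream start (chr9:20952574-20952873, minus strand): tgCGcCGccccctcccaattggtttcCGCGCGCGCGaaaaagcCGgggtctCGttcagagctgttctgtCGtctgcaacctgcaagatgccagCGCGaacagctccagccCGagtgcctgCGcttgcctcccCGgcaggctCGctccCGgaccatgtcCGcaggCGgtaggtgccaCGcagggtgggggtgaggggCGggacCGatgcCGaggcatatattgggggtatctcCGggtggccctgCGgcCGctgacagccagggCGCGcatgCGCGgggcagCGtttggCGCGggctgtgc
Uhrf1, downstream start (chr17:56304063-56304362, plus strand): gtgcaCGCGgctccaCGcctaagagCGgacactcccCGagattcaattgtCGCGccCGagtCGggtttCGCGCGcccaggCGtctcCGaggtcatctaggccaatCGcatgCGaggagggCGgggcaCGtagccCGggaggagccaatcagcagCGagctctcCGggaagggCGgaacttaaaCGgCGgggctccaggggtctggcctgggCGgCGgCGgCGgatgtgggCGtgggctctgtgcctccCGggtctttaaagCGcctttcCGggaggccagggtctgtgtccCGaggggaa
Tet2 (chr3:133544341-133544640, minus strand): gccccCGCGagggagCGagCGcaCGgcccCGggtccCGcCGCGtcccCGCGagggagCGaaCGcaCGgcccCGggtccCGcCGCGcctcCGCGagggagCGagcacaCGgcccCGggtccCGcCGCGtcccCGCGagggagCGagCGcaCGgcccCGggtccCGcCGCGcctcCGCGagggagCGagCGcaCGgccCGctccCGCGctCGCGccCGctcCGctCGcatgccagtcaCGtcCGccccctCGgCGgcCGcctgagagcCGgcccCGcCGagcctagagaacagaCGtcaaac
Dnmt3l, most upstream start (chr10:78042037-78042336, plus strand): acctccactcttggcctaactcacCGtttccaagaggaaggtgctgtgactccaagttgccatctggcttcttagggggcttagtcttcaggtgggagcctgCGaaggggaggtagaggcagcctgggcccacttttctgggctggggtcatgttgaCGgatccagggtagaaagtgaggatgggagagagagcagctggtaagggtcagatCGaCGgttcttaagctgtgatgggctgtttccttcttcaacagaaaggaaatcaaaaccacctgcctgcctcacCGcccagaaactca

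The 3 windows of Dnmt1 held 2, 12 and 33 CpG, so the gene has both a start poorer than the median of the genome and a start richer than 91.4% of windows. Uhrf1 had the same pair of values, 12 and 33, at its 2 starts. The single window of Tet2 held 57 CpG, and 99.85% of windows held fewer, although Tet2 had the lowest level of the 9 genes. All 3 windows of Dnmt3l were poor in CpG, with 6, 4 and 3. The windows of Dnmt3a held 46, 47 and 18 CpG, and the first 2 overlap. Those of Dnmt3b, Uhrf2, Tet3 and Tet1 held 30, 28, 22 and 17. The 3 forms of the site of E2F that were searched for, TTTCCCGC, TTTGGCGC and TTTCGCGC, belong to a family of regulators of S phase genes, and both strands were read. Of all windows, 1.85% held at least 1. Among the 16 windows they were found in the most downstream window of Dnmt1, as GCGCGAAA at position -219 from the start and as TTTGGCGC at position 33, and in the downstream window of Uhrf1, as TTTCGCGC at position -185. These matches do not overlap each other, and they are matches of letters only.

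**Figure D1:**
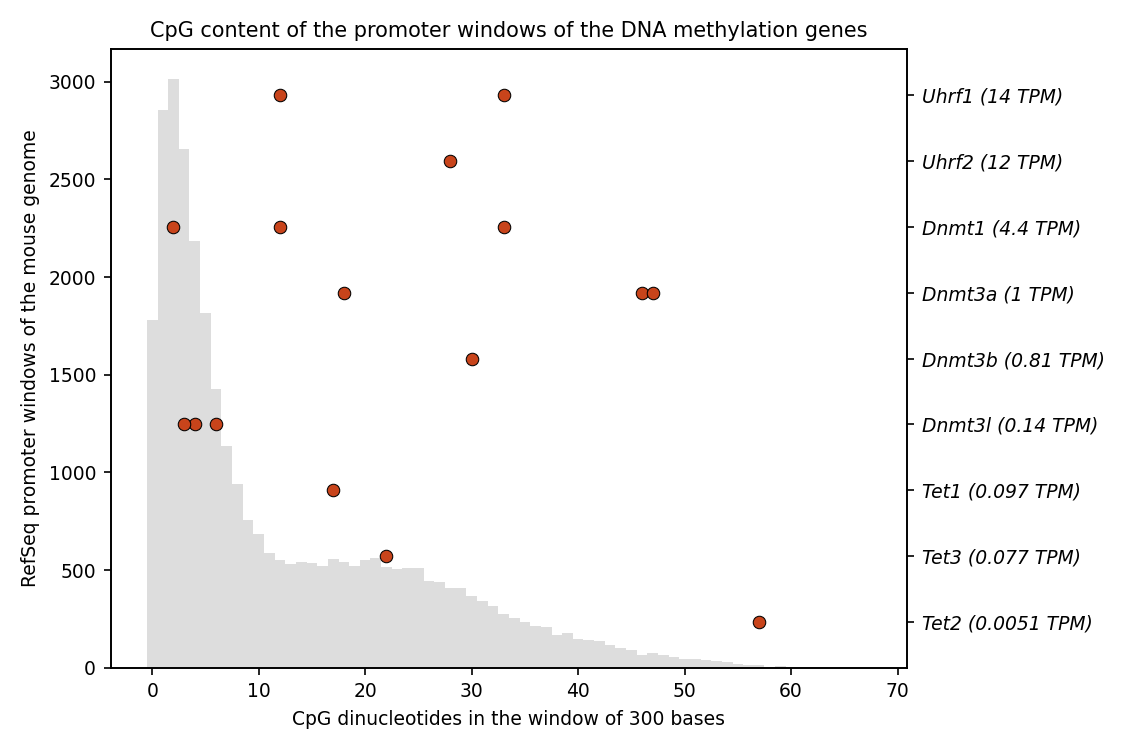
CpG dinucleotides in the promoter windows of 300 bases (x axis) of the 9 genes (red points, right axis, ordered by mean TPM over the 4 libraries), over the number of RefSeq windows of the mouse genome with that CpG count (grey bars, left axis). The windows of Dnmt3l lie at 3 to 6 CpG and that of Tet2 at 57, while both genes are at the low end of the levels.

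Depth, recovered from the steps between TPM values, was 14319901 and 16244055 gene reads for Ctrl and 20720091 and 19007482 for AZ20. Markers of pachytene spermatocytes were present throughout, with 10 of 10 tested and a summed level of 4394 to 4976 TPM in Ctrl and 5000 to 5618 in AZ20. Much of the sum was Sycp3, at 2061 and 2424 TPM in Ctrl and 2564 and 2924 TPM in AZ20. The median change of log2(TPM + 1) over the 10 markers was -0.005. Of 10 Sertoli markers, Sox9, Wt1 and Fshr were at 0 in every library and the sum reached at most 2.93 TPM, and of 6 Leydig markers 5 were at 0 in every library. Markers of round spermatids summed to 385 and 163 TPM for Ctrl and 800 and 266 TPM for AZ20. The sum was higher in replicate 1 of each condition, and also higher with AZ20 than with Ctrl at each replicate number. Over these 10 markers the median change of log2(TPM + 1) was 0.62, and 0 were called. The part of round spermatids in the levels given here was not tested. In bulk RNA, fewer cells of a kind and less RNA per cell cannot be told apart. The test was limma on log2(TPM + 1) for genes whose mean in Ctrl or in AZ20 exceeded 1 TPM. Called genes are those past 2-fold with an adjusted p (Benjamini-Hochberg) under 0.05. By exact permutation, 2 libraries against 2 cannot go below p = 0.333 for a single value.

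Transcripts of the readers and of the maintenance enzyme were the most abundant of the 9, the de novo enzymes lay near 1 TPM, and Dnmt3l and the Tet genes were close to the limit of detection. None of the 4 abundant enough to be tested was called with AZ20. In descending order the levels were Uhrf1 (mean over the 4 libraries 14.5 TPM), Uhrf2 (12.3), Dnmt1 (4.36), Dnmt3a (1.04), Dnmt3b (0.810), Dnmt3l (0.139), Tet1 (0.0971), Tet3 (0.0766) and Tet2 (0.00506). The ranges of Uhrf2 and Dnmt1, of Dnmt1 and Dnmt3a, and of Dnmt3b and Dnmt3l did not overlap over the 4 libraries. Uhrf1 and Uhrf2 did not differ beyond their spread, each being the higher in 2 libraries. Dnmt3a was above Dnmt3b in all 4 libraries, although their ranges overlapped, and the ranges of neighbours from Dnmt3l down to Tet2 overlapped as well. Together the 9 genes summed to 32.3 ± 1.63 TPM in Ctrl against 34.4 ± 1.32 TPM in AZ20 (SD, n = 2 each). Uhrf1 and Uhrf2 made up 75.8% and 86.0% of this sum in Ctrl, and 79.1% and 80.5% in AZ20.

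**Figure D2:**
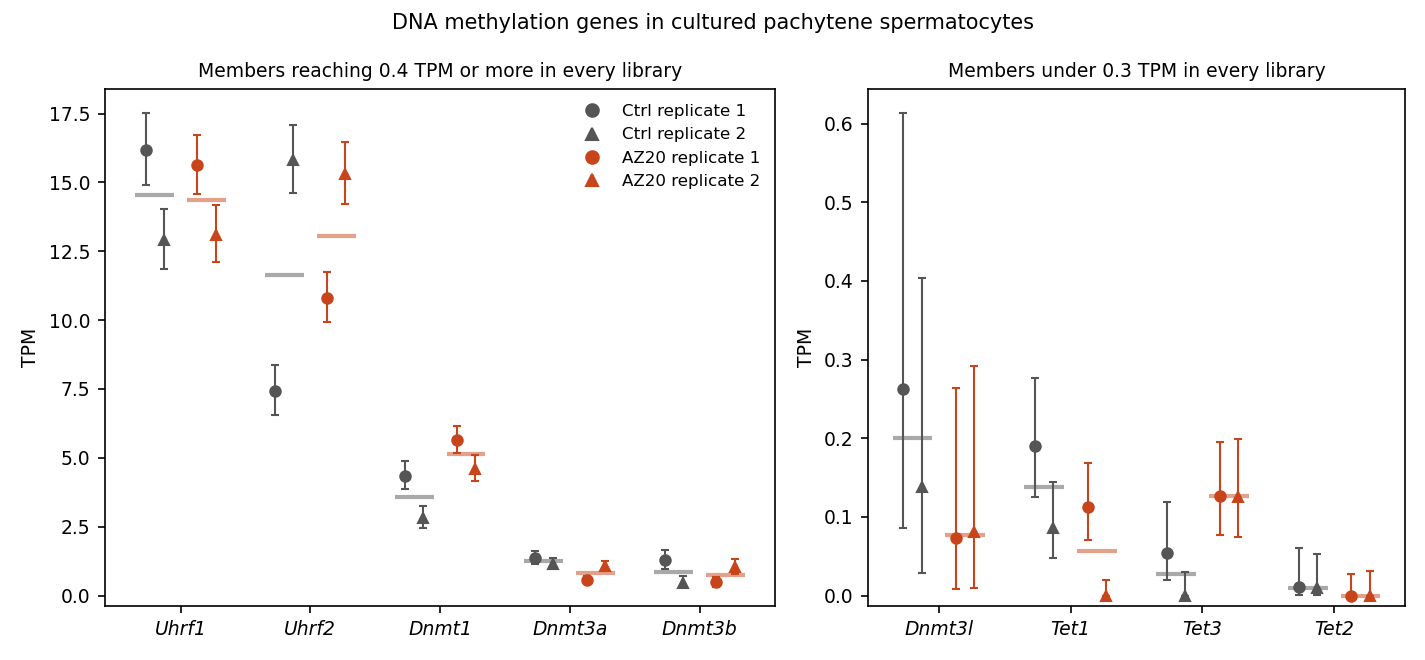
TPM of the 9 DNA methylation genes in each library (left panel, the 5 more abundant genes, right panel, the other 4 on a finer scale), with circles for replicate 1, triangles for replicate 2, grey for Ctrl and red for AZ20. Bars on points are 95% exact Poisson intervals of the reads and cover counting error only, and thick lines are group means. Uhrf2 differs more between replicates than between conditions, and Tet2 has a read in each Ctrl library and none in AZ20.

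Uhrf1 (chromosome 17, 56303321 to 56323486, GRCm38) encodes the reader that brings Dnmt1 to replicated DNA. It had 16.2 and 12.9 TPM under Ctrl, from 596 and 544 reads, and 15.6 and 13.1 TPM under AZ20, from 830 and 628 reads. Replicate 1 was the higher in both conditions, and the groups overlapped. The change of log2(TPM + 1) was -0.013 (standard error 0.24, 95% interval -0.57 to 0.54, limma adjusted p = 0.995). Between replicates of Ctrl the gap was 0.30 on the same scale, larger than in 56.3% of 2740 tested genes of like level, defined as a mean TPM within 2-fold. Its level exceeded that of 81.1% of all genes listed.

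Dnmt1 (chromosome 9, 20907209 to 20959888) encodes the maintenance methyltransferase. It had 4.35 and 2.83 TPM in Ctrl, from 277 and 206 reads, and 5.65 and 4.61 TPM in AZ20, from 518 and 381 reads. Both AZ20 libraries lay above both Ctrl libraries, as they did for 26.4% of the 10316 genes tested. The change of log2(TPM + 1) was 0.43 (standard error 0.29, 95% interval -0.26 to 1.12, limma adjusted p = 0.766), and the pairs gave 0.31 for replicate 1 and 0.55 for replicate 2. This did not pass the test, and the gap between the Ctrl replicates, 0.48, was larger than the change itself. Within a library, the TPM of Uhrf1 were 3.72 and 4.56 times those of Dnmt1 in Ctrl and 2.77 and 2.85 times in AZ20. The TPM of Dnmt1 were 3.19 and 2.44 times those of Dnmt3a in Ctrl and 9.97 and 4.36 times in AZ20. Of 5 ratios between members, these 2 had groups that did not overlap, among the ratios defined in every library. For Dnmt1 to Dnmt3a this was fixed in advance, as both AZ20 libraries lay above Ctrl for Dnmt1 and below Ctrl for Dnmt3a. Both ratios reuse the values of Dnmt1 and are not separate evidence of a change. The ratio of Tet1 to Tet3 was 3.49 and undefined (Tet3 at 0) in Ctrl and 0.891 and 0 in AZ20, from few reads. With 2 libraries against 2, an exact permutation p cannot go below 0.333. Of single genes tested, 38.1% had groups that did not overlap, a share that does not cover ratios.

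Uhrf2 (chromosome 19, 30030513 to 30093722), the paralog of Uhrf1, encodes a reader that does not replace Uhrf1 in maintenance and is known to bind hydroxymethylated DNA. Its TPM were 7.42 and 15.8 under Ctrl, from 265 and 646 reads, and 10.8 and 15.3 under AZ20, from 556 and 711 reads. Here replicate 2 was the higher in both conditions, the opposite of Uhrf1. The counting intervals of the Ctrl libraries, 6.56 to 8.37 and 14.6 to 17.1 TPM, did not overlap. The gap between the Ctrl replicates was 0.999 in log2(TPM + 1), larger than in 94.9% of 2824 genes of like level, whereas that between the AZ20 replicates, 0.47, was larger than in 73.2%. The summed level of 10 spermatogonial markers had the same order over the libraries, 8.26 and 21.2 TPM in Ctrl and 13.5 and 15.05 in AZ20. Of these sums 7.60, 20.1, 11.2 and 13.8 TPM were Uchl1, so the order was mainly that of Uchl1. Gfra1 of this list had another order, with 0.154 and 0.376 TPM in Ctrl and 1.11 and 0.945 TPM in AZ20. Stra8, Dmrt1 and Sohlh1 of this list were at 0 in every library. The summed level of 6 Leydig markers, all of it from Star, had the order of Uhrf2 too. It was 0.866 and 2.31 TPM in Ctrl and 1.60 and 2.11 TPM in AZ20. Likeness of order cannot be ranked over 4 libraries. The part of spermatogonia or Leydig cells in the level of Uhrf2 was not tested. With AZ20 the change of log2(TPM + 1) was 0.22 (standard error 0.37, 95% interval -0.65 to 1.09, limma adjusted p = 0.924), and the pairs gave 0.49 and -0.045. Without Ctrl replicate 1 it was -0.28 and without Ctrl replicate 2 it was 0.72, so its sign rested on single libraries.

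Dnmt3a (chromosome 12, 3806007 to 3914443) and Dnmt3b (chromosome 2, 153649450 to 153687730) encode the de novo methyltransferases. Dnmt3a had 1.36 and 1.16 TPM in Ctrl and 0.567 and 1.06 TPM in AZ20, from 137, 133, 82 and 138 reads. Both AZ20 libraries lay below both Ctrl libraries, as for 11.7% of all genes tested, but AZ20 replicate 2 was close to Ctrl. The change of log2(TPM + 1) was -0.33 (standard error 0.33, 95% interval -1.12 to 0.46, limma adjusted p = 0.851), and the pairs gave -0.59 and -0.070. On the ratio scale, which the added 1 TPM does not compress, AZ20 replicate 1 had 0.415 times the level of its Ctrl pair and AZ20 replicate 2 had 0.912 times. With a pseudocount of 0.01 the change was -0.69 (limma adjusted p = 0.816). Dnmt3b had 1.28 and 0.461 TPM in Ctrl and 0.477 and 1.02 TPM in AZ20, from 56, 23, 30 and 58 reads. It was high in Ctrl replicate 1 and AZ20 replicate 2 and low in the other two, so the pairs went opposite ways, at 0.372 and 2.22 times the level of Ctrl. Its group means, 0.872 and 0.749 TPM, fell just short of the 1 TPM minimum that Dnmt3a passed with 1.26 TPM in Ctrl. Reads that align to more than 1 place were left out by the authors, and Dnmt3b has a close rodent copy in Dnmt3c, so its level is uncertain. Dnmt3c was sought under the symbol Gm14490 and not found among the genes listed, so it was not analysed.

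Dnmt3l (chromosome 10, 78041947 to 78063622), the cofactor of the de novo enzymes, had 5 and 3 reads under Ctrl against 2 and 2 under AZ20, or 0.263 and 0.138 TPM against 0.0730 and 0.0809 TPM. Both AZ20 libraries were below both Ctrl libraries. The lowest counting interval of Ctrl, 0.0285 to 0.403 TPM, held both AZ20 values, so a difference was not detectable at this depth.

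The 3 Tet genes together summed to 0.255 and 0.0956 TPM in Ctrl and 0.238 and 0.126 TPM in AZ20, at most 0.820% of the sum over the 9 genes in any library. Tet1 (chromosome 10, 62804570 to 62908996) had 27 and 14 reads under Ctrl against 23 and 0 under AZ20, or 0.190, 0.0862, 0.112 and 0 TPM. The 0 reads of AZ20 replicate 2 allow a level of up to 0.0162 TPM (3 reads), below the other 3 libraries. Tet3 (chromosome 6, 83362373 to 83459084) had 6 and 0 reads under Ctrl against 20 and 18 under AZ20, or 0.0545, 0, 0.126 and 0.126 TPM. Both AZ20 libraries were above both Ctrl libraries, and the counting interval of Ctrl replicate 1, 0.02001 to 0.119 TPM, overlapped those of AZ20, 0.0770 to 0.195 and 0.0745 to 0.199 TPM. That of Ctrl replicate 2, 0 to 0.0293 TPM, did not. Tet2 (chromosome 3, 133463679 to 133545139) had 1 read in each Ctrl library and 0 in each AZ20 library, which allows up to 0.0225 and 0.0249 TPM there. No change of Tet2 was detectable at this depth. Reads without molecular identifiers can be copies of 1 molecule, so these intervals cover counting error only.

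The comparison of AZ20 with Ctrl asks whether loss of ATR activity alters transcripts of a pachytene spermatocyte. Of the 4 members with a mean above 1 TPM (Uhrf1, Uhrf2, Dnmt1 and Dnmt3a), 0 were called with limma, against 2.33% of the 10316 genes tested and 0.151% of the 9936 autosomal genes, the class to which all 9 members belong. Calls in the lower direction alone were 0.0485% of all genes tested and 0.0503% of the autosomal ones. At an unadjusted p under 0.05 the count was again 0 of 4, against 9.16% of all genes tested, and voom on the recovered reads also called 0. The groups did not overlap for 2 of the 4, in opposite directions, against 38.1% of genes tested and 36.2% of autosomal genes. Among the untested members they also did not overlap for Dnmt3l and Tet2 (lower with AZ20) and Tet3 (higher). These shares do not cover genes of such low levels. The median change of the 4 members was 0.10, against 0.07 over all genes tested and 2.61 over 341 X-linked genes. For the 5 other members, a test with no minimum TPM gave changes of log2(TPM + 1) from -0.15 (Dnmt3l) to 0.13 (Tet3). These 2 had limma adjusted p of 0.852 and 0.845. The added 1 TPM compresses such low levels, so Tet3 changed by only 0.13 although its AZ20 mean was 4.62 times that of Ctrl. For all 5, even a loss of every read would have stayed short of 2-fold on this scale, so a lower call was impossible. For Dnmt3a, near 1 TPM, a lower call was possible but needed a fall of more than 2-fold in TPM. With a pseudocount of 0.01, which compresses its level far less, Dnmt3a was not called either. Voom on genes with at least 10 reads over the libraries, a test added after the data were seen, gave a log2 change of -2.81 (standard error 1.66, adjusted p = 0.789) for Tet1 and 3.13 (standard error 1.73, adjusted p = 0.767) for Tet3. The 95% intervals, -6.42 to 0.80 for Tet1 and -0.64 to 6.91 for Tet3, both include 0. With the replicate block the log2 changes were -1.40 (adjusted p = 0.782) and 2.30 (adjusted p = 0.727).

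**Figure D3:**
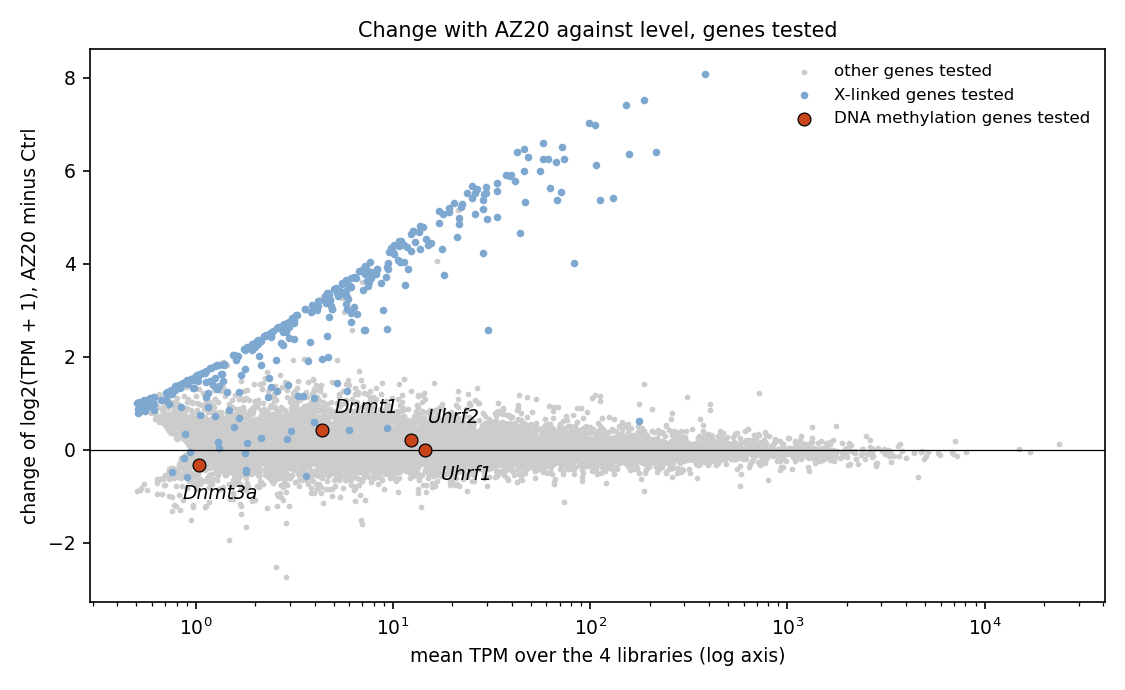
Change of log2(TPM + 1) with AZ20 (y axis) against mean TPM over the 4 libraries (x axis, log scale) for the genes tested, with X-linked genes in blue and the 4 tested DNA methylation genes in red. The 4 lie between -0.33 and 0.43, within the band of the other genes, while X-linked genes have a median of 2.61.

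Other genes of the pathway were taken from 6 lists with 66 genes, of which 47 were tested. Of these, 3 were called higher and 0 lower with limma, and all 3 are X-linked. Called higher were 2.28% of all genes tested and 63.3% of the 341 X-linked genes tested, and of the 44 tested list genes on autosomes 0 were called in either direction.

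Among 11 methyl-CpG readers, 8 were tested and 0 were called, with a median change of 0.14. Mbd3, a subunit of the NuRD complex and the most abundant of them, had 60.2 and 66.2 TPM in Ctrl and 50.8 and 43.6 TPM in AZ20, the lowest change of this list (log2 change -0.42 ± 0.19 SE, limma adjusted p = 0.602). Mbd5 had the highest, 0.45 (limma adjusted p = 0.785). Zbtb33, a reader on the X chromosome, was below the minimum for the test. It was without reads in Ctrl, with 23 and 57 in AZ20, or 0.309 and 0.848 TPM, which is at least 10.6-fold higher against 3 reads in each Ctrl library.

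Among 15 partners and recruiters, 10 were tested and 1 was called. Ogt, the X-linked O-GlcNAc transferase that binds Tet proteins, was without reads in Ctrl, with 203 and 178 in AZ20, or 2.59 and 2.52 TPM, at least 49.4-fold higher (log2 change 1.83 ± 0.32 SE, limma adjusted p = 0.0342). The call of Ogt was lost when any 1 library was left out, with limma adjusted p of 0.170 without Ctrl replicate 1, 0.163 without Ctrl replicate 2, 0.107 without AZ20 replicate 1 and 0.0818 without AZ20 replicate 2. Its log2 change stayed between 1.82 and 1.85 in these 4 fits, and without either AZ20 library 0 genes of the whole table were called. The call was also lost after quantile normalization (limma adjusted p = 0.0553). It was lost as well with voom on genes with at least 10 reads (adjusted p = 0.0672), a test added after the data were seen. The planned voom, on the genes of the main test, called Ogt (adjusted p = 0.0117). With the replicate number as a block Ogt was called by limma on TPM (adjusted p = 0.000977). The planned voom (adjusted p = 0.000736) and the voom on genes with at least 10 reads (adjusted p = 0.00269) then called it too. The most abundant partner was Pcna, the clamp of replication and repair, with 627 and 760 TPM in Ctrl and 789 and 766 TPM in AZ20 (log2 change 0.17, limma adjusted p = 0.830). Setd2, a histone H3 lysine methyltransferase, had the lowest change of this list, -0.15 (limma adjusted p = 0.933).

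Base excision repair acts after oxidation or deamination of the methylated base, and 7 of its 15 listed genes were tested and 0 called. Polb, a DNA polymerase, was the most abundant, with 235 and 272 TPM in Ctrl and 262 and 227 TPM in AZ20 (log2 change -0.05, limma adjusted p = 0.967). Changes ranged from -0.29 for Apex1 to 0.15 for Gadd45b (limma adjusted p = 0.867 and 0.927). Of 10 genes that supply S-adenosylmethionine, the methyl donor, or clear its product, 8 were tested and 0 called. Mat2b, a regulatory subunit of the synthetase, had 29.1 and 32.7 TPM in Ctrl and 52.8 and 37.9 TPM in AZ20, the highest change of the list (log2 change 0.52 ± 0.23 SE, limma adjusted p = 0.574), and Ahcyl2 had the lowest, -0.07. Of the methyltransferase family, Trdmt1, which methylates tRNA, had 8.83 and 8.81 TPM in Ctrl and 13.7 and 10.9 TPM in AZ20 (log2 change 0.43 ± 0.24 SE, limma adjusted p = 0.689).

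All 13 germline genes whose promoters are known to be methylated in somatic cells were tested, 2 were called higher and 0 lower, and the median change was 0.18. Both called genes are X-linked. Taf7l, a germ cell paralog of a TFIID subunit, had 0.102 and 0.851 TPM in Ctrl and 68.3 and 65.5 TPM in AZ20 (log2 change 5.57 with a standard error of 0.30, limma adjusted p = 9.33e-05). Tex11, a gene of meiotic recombination, had 0.634 and 0 TPM in Ctrl and 11.2 and 7.82 TPM in AZ20 (log2 change 3.02 ± 0.36 SE, limma adjusted p = 0.00433). Without AZ20 replicate 1 the limma adjusted p was 0.110 for Taf7l and 0.289 for Tex11, and without AZ20 replicate 2 it was 0.0934 and 0.204, when 0 genes were called in the whole table. The call of Tex11 was also lost with a pseudocount of 0.1 or 0.01 (limma adjusted p = 0.0663 and 0.341), with no minimum TPM (0.0623) and with voom on genes with at least 10 reads (0.0910). With the replicate block that voom called Tex11 (adjusted p = 0.00140). The planned voom, on the genes of the main test, called Tex11 without the block (adjusted p = 0.0296) and with the block (adjusted p = 0.00209). The most abundant of the 13 was Tuba3a, at 2743 and 3476 TPM in Ctrl and 2890 and 2246 TPM in AZ20 (log2 change -0.28, limma adjusted p = 0.746). Tex101, which encodes a germ cell surface protein, had the lowest change, with 524 and 959 TPM in Ctrl and 449 and 375 TPM in AZ20 (log2 change -0.79 ± 0.28 SE, limma adjusted p = 0.425).

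**Figure D4:**
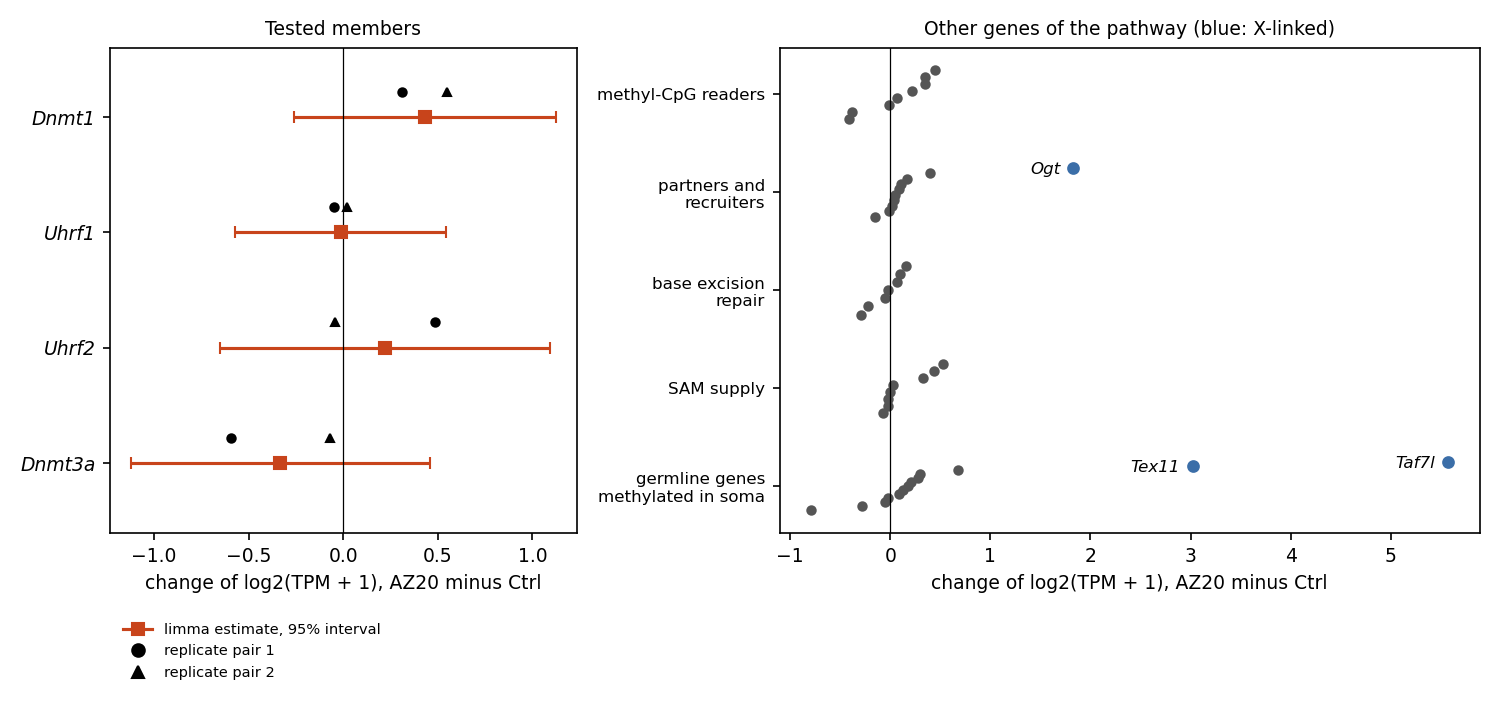
Change of log2(TPM + 1), AZ20 minus Ctrl, for the 4 tested DNA methylation genes (left panel, red squares with 95% limma intervals, black symbols for the replicate pairs) and for the tested genes of 5 lists (right panel, 1 point a gene, X-linked genes in blue). The intervals of all 4 members include 0, and in the right panel Ogt, Tex11 and Taf7l stand apart at 1.83, 3.02 and 5.57.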

How the data were processed

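RNA-seq was done on 4 libraries. Paired reads of 150 bp were trimmed by the authors (Trimmomatic 0.39). They mapped them with STAR 2.5.4b on GRCm38 and kept unique alignments, counted them on UCSC refGene with featureCounts 2.0.1 and deposited TPM computed from the counts. Strand use in counting is not given in the sources used here. Each column sums to 1000000. limma 3.58.1 (R 4.3.3) was run, with an intensity trend, on log2(TPM + 1) of genes averaging over 1 TPM in either group. As libraries share a gene's length, TPM could be turned back into whole reads, which succeeded for all 16857 genes above 0. A factor common to the reads of 1 gene is invisible in TPM. It was set where the length then came within 5% of that in GENCODE vM21 and can be wrong, so depths are estimates. Of the recovered lengths of annotated genes, 69.9% were within 5% of the annotated length. Dnmt3l was not, at 1885 against 2670 bases. The reads of Uhrf1 and Tet3, and so their counting intervals, rest on a factor of 2. For the 9 members the lengths were 1885 to 14082 bases. Intervals are 95% exact Poisson intervals and floors are 3 reads. Scripts were tested on simulated data. Intervals were computed with scipy 1.17.1 in Python 3.11.15, with pandas 2.3.3.

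The methods state that cells of a mouse were split between conditions, and deviations from the group means correlated at 0.23 between libraries of the same number (9936 autosomal genes). The replicate number was left out of the main fit and added in an alternative. The genes and lists were chosen with earlier results of these data known. Named are the 9 members and, of each list, every called gene, every X-linked gene, the most abundant tested gene and those with the highest and lowest change. Hells, Trim28, Dazl, Tdg and the cell type markers fall outside this rule. A gene named by the rule is not reported here. Alternatives were other pseudocounts, filters, scalings, no trend, no fold threshold, voom on recovered reads, the replicate block and leaving out each library. A total of 92 lines with no gene name were left out.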

Additional observations from a re-analysis of the deposited data

How the results depend on the processing

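With the replicate number as a block, 0 of the 4 tested members were called, as in the fit without it, and the median change of the 4 stayed at 0.10. The limma adjusted p of Dnmt1 was then 0.627, and the block changed no call among the members or the lists (3 higher, 0 lower), while the genes called in the whole table went from 240 to 447. No member was called under any of the alternatives, where limma adjusted p of the 4 tested members ranged from 0.575 to 0.9997. Leaving out single libraries gave -0.064 to 0.088 for the median of the 4 members, -0.17 to 0.14 for Uhrf1 and -0.28 to 0.72 for Uhrf2, and 0 to 2 list genes called higher. Dnmt1 was above 0 in each alternative, and Dnmt3a was below 0 in each that it entered, all but the minimum of 5 TPM. The median was 0.22 over the 3 members with a mean TPM above 5, and -0.015 over all 9 with no filter. In the fit with no filter, the 5 members not tested in the main fit could not have been called lower on log2(TPM + 1). With quantile normalization the median of the 4 members was -0.075, where the median over all genes tested moved by -0.14. Among the tests added after the data were seen, voom on genes with at least 10 reads gave a median of -0.088 over 8 members and called 1 list gene higher and 108 genes in all, and with the replicate block the median was -0.13, with 3 list genes called higher and 302 genes in all. The filters change by construction which members enter the median, and the cause of the other shifts was not tested. Depth limits the 4 members with 64 reads or fewer over the libraries (Tet1, Tet3, Dnmt3l and Tet2).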

Other observations

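Hells, a chromatin remodeller needed for DNA methylation at repeats, had 62.1 and 71.8 TPM in Ctrl and 55.6 and 81.8 TPM in AZ20, and Trim28, a corepressor that keeps methylation at imprinted regions, had 88.0 and 81.9 TPM in Ctrl and 79.3 and 97.1 TPM in AZ20. Neither was called (limma adjusted p = 0.995 and 0.972). Dazl, a germ cell RNA-binding protein and an autosomal gene of the list methylated in somatic cells, had 244 and 309 TPM in Ctrl and 375 and 513 TPM in AZ20, and was not called (log2 change 0.67, standard error 0.21, limma adjusted p = 0.332). Tdg, the glycosylase that removes oxidised methylcytosine, was without reads in Ctrl, with 1 and 0 in AZ20. Whether reads of Tdg align to more than 1 place, and so were left out, was not tested. Hells, Trim28, Dazl and Tdg were picked with their values known.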
